A study of Mus musculus with 12 samples.

Results

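B4 elements are a family of short interspersed nuclear elements (SINEs) of the mouse genome, and 381 CpGs that lay in one of them were among the 22659 CpGs listed as differently methylated between genotypes of embryonic stem cell (ESC) clones, either knockouts of Tet genes against wild type (356 of the 381) or Tet2 knockout against Tet1 knockout alone (25). Members were the CpGs whose detailed annotation gave the class SINE and the family B4, in any of 5 lists that the authors deposited. Each list holds single CpGs whose methylation differed by at least 25 percentage points between groups of clones, with the signed difference. The 4 lists against wild type (WT) gave 109 B4 CpGs for Tet1 KO and 123 for Tet2 KO. They gave 96 for the Tet1 and Tet2 double knockout (DKO) and 146 for the Tet1, Tet2 and Tet3 triple knockout (TKO). A list of Tet2 KO directly against Tet1 KO clones gave 64. The DKO list held 115 B4 entries, and only the 96 whose annotation could be paired to a position are counted. CpGs known only from the other 19 are not among the 381. The counted CpGs were 1.55 to 1.96% of the entries of a list with a usable annotation.

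CpG methylation was read by reduced representation bisulfite sequencing (RRBS), where genomic DNA is cut with MspI at CCGG and only the ends of short fragments are read, in 12 clones, of which 3 were WT, 3 Tet1 KO and 2 each Tet2 KO, DKO and TKO. All were 129-derived mouse ESCs (129/SVj in the methods of the study) from one parental line carrying an eGFP reporter at Oct4, and the knockouts were made in it with CRISPR, so a genotype stands for 2 or 3 clones of one line. Groups follow the sample titles, although in 3 samples (1 DKO and both TKO) the labels' genotype entry gives a different knockout. All clones of a genotype enter a listed value together. The lists give no levels, read depth or values per clone, so no value below carries an error, and tests over CpGs describe a list and not the spread between clones. Bisulfite sequencing does not tell 5-methylcytosine from 5-hydroxymethylcytosine, and expression was not measured in these files, so the cell type could not be checked against markers.

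Tet enzymes oxidise 5-methylcytosine and so start its removal, while DNA methyltransferases keep most SINE copies methylated in mammalian cells. SINEs are copied through RNA that RNA polymerase III transcribes from a promoter inside the element, made of an A box and a B box, and they depend on the proteins of LINE elements to insert. The B4 family of rodents arose where a tRNA-like ID element was joined to a B1 element, which derives from 7SL RNA. The annotation divides the listed members by element name into B4A (127 CpGs), ID_B1 (118), RSINE1 (76) and B4 (60). B1, which the annotation files under Alu, and B2 are the other abundant SINE families of the mouse and were used for comparison.

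The sequences printed here are those of elements with the largest differences or with CpGs in the most lists. Each is the forward strand of NCBIM37, the assembly called mm9, written 5′ to 3′, with every listed B4 CpG (CG) and every MspI site (CCGG) in capitals. Ralb carried the only group of 3 listed B4 CpGs, Lmx1a and E330011O21Rik each had a CpG in all 4 lists against WT, Lyplal1 had the same value in 3 lists, and the others are among the highest, the lowest or the most variable members.
Ralb, B4A/ID_B1, chr1:121384266-121384497: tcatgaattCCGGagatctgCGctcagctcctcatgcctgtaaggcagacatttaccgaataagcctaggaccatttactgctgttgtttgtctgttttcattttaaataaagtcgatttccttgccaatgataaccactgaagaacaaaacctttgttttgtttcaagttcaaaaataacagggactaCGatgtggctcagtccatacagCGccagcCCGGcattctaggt
Lmx1a, B4, chr1:169750302-169750403: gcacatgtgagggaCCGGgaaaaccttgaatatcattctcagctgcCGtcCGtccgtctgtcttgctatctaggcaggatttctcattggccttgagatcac
E330011O21Rik, RSINE1, chr16:78199649-78199750: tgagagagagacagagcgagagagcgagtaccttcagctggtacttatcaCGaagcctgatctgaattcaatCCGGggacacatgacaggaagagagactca
Lyplal1, ID_B1, chr1:187762349-187762450: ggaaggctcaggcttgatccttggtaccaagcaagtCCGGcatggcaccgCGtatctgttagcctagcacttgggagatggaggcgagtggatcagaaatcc
Zfr2, RSINE1, chr10:80702379-80702480: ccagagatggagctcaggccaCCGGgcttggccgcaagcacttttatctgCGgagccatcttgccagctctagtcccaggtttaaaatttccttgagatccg
Izumo2, RSINE1, chr7:51967066-51967167: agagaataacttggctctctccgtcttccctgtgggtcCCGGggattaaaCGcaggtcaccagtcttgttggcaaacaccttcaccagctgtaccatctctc
Cybrd1, RSINE1, chr2:70952768-70952869: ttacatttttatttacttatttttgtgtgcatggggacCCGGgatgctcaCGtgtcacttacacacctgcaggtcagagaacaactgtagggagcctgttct
Slc29a2, B4A, chr19:5018935-5019036: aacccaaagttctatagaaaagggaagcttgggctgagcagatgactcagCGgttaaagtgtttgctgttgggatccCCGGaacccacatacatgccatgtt
Zkscan2, B4, chr7:130677489-130677590: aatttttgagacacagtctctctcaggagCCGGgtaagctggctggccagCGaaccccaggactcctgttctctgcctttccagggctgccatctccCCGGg

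The sequence next to a listed B4 CpG did not recur at another listed B4 CpG, and the rest of the genome was not searched. The 20 bases around the CpG, read on either strand, were distinct for all 380 members in assembled sequence. The 797 Alu (B1) CpGs shared 476 such sequences, one of them found at 133 CpGs, and 441 B2 CpGs shared 366. Most listed CpGs were like B4 in this, since the 20921 outside B4 had 20257 such sequences (96.8%). A CCGG lay within 50 bases of 371 of the 380 B4 CpGs (97.6%, against 98.1% elsewhere). The listed CpG was itself never the one inside a CCGG, and the nearest stood 5 bases from it. Both held for Alu (B1) and B2 CpGs too, and only 6 of 20921 CpGs outside B4 were inside a CCGG. RRBS reads the ends of MspI fragments and the authors clipped the first 6 bases, so this placement describes the method and not B4. The median distance was 20 bases with quartiles of 12 and 28, against 21 bases with quartiles of 13 and 29 elsewhere. Windows of 102 bases around B4 CpGs had a median GC content of 52.0% and a median of 3 CpGs, against 4 CpGs elsewhere. The 4 element names were alike in this, with a median GC content of 52.0 to 52.9% and 3 CpGs each. A window with no more than 2 CpGs was found at 123 B4 CpGs (32.4%), at 33.8% of B2 and 22.7% of Alu (B1). It was found at 21.6% of all CpGs outside B4, which include B2 and Alu (B1).

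Letters of the RNA polymerase III boxes were rare around the listed B4 CpGs, though those of the A box were less rare than at all CpGs outside B4. The core of the B box, GTTCGA, was searched on both strands and stood in the window of 8 B4 CpGs (2.11%). It stood at 22.0% of Alu (B1), 2.49% of B2 and 2.1% of all CpGs outside B4. Of the 440 CpGs outside B4 with this core, 175 were in Alu (B1) and 11 in B2. The listed CpG was the one inside GTTCGA at 6 of the 380 members. A longer B box, GGTTCGA with CC after a further 2 bases, which contains the core, was present at 1 B4 CpG (0.263%). Its share was 1.36% of B2, 0% of Alu (B1) and 0.086% of all CpGs outside B4. The B4 match was in an ID_B1 element in intron 1 of Fndc3b, where the Tet1 KO list gave -27.0 points. The A box letters, TGGC and AGTGG with 2 bases between them, stood at 8 B4 CpGs (2.11%), 5 of them in the 75 RSINE1 windows (6.67%). They stood at 19.7% of B2 CpGs and 0.626% of all CpGs outside B4. Of the 131 CpGs outside B4 with these letters, 87 were in B2 and 0 in Alu (B1). The window at Fndc3b is printed with the B box in capitals, and that of an RSINE1 element upstream of Ntn5, whose CpG was 41.2 points higher in Tet1 KO clones, with the A box in capitals. Both boxes read on the reverse strand there.
Fndc3b, ID_B1, chr3:27589746-27589847: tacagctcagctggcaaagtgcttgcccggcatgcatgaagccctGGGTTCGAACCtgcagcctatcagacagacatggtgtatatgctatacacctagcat
Ntn5, RSINE1, chr7:52931655-52931756: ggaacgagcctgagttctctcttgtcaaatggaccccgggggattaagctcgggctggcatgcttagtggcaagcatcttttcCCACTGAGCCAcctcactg

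Every listed B4 CpG lay in an intron (187, 49.1%) or between genes (194, 50.9%), as did every listed Alu (B1) and B2 CpG. No B4, Alu (B1) or B2 entry of any list was annotated to an exon, a promoter, a UTR or a gene end, so this is how the annotation names repeats and not a finding, and it bears on the distances to a start site too. The median distance to the nearest transcription start site (TSS) was 20055 bp, against 14701 bp for Alu (B1) and 17353 bp for B2. It was 19868 bp for all CpGs outside B4, Alu (B1) and B2 included. Among the names it ran from 13531.5 bp for ID_B1 and 18803 bp for RSINE1 to 29883 bp for B4A and 32155.5 bp for B4, and 33.3% of the elements named B4 but 14.4% of ID_B1 stood more than 50000 bp from a TSS. Only 18 B4 CpGs (4.72%) came within 2000 bp of a TSS, against 7.28% of Alu (B1), 3.39% of B2 and 13.0% of all CpGs outside B4. The 381 CpGs were spread over 20 chromosomes, with the largest number, 35, on chromosome 1.

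More of the listed B4 CpGs were higher than lower in each list, as were more of all listed CpGs, but in DKO and TKO the excess at B4 was within counting error. In the Tet1 KO list 70 B4 CpGs were higher and 39 lower than in WT (64.2% higher), where 65.6% of all listed CpGs were higher. In the Tet2 KO list 90 were higher and 33 lower (73.2%, against 77.7% of all listed CpGs). The DKO list had 58 higher and 38 lower (60.4%, against 64.8%). The 64.8% includes DKO entries without a paired annotation, and among paired entries outside B4 the share was 66.3%. The TKO list had 79 higher and 67 lower (54.1%, against 58.6%). The 95% intervals of these B4 shares, 49.9 to 70.3% in DKO and 45.7 to 62.4% in TKO, include equal numbers of gains and losses. In Tet2 KO against Tet1 KO clones 44 were higher in Tet2 KO and 20 lower (68.8%, against 67.0%). These shares are near those of all listed CpGs, and the next tests put a bound on the difference.

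**Figure D1:**
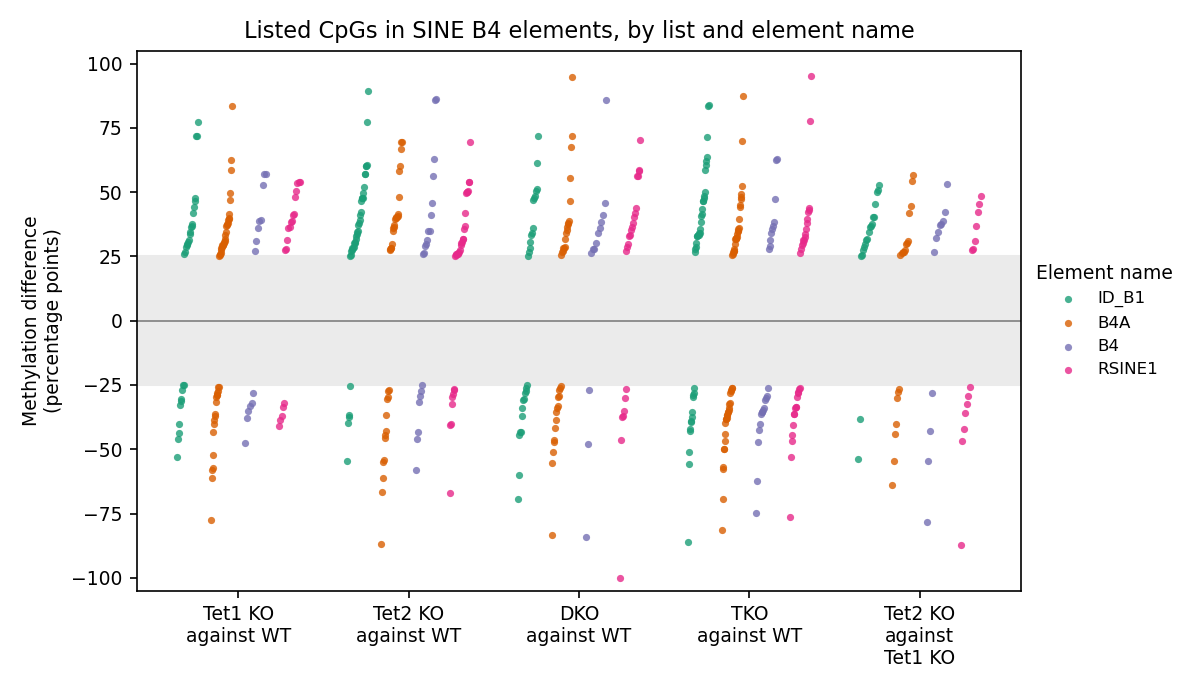
Methylation difference of each listed B4 CpG in percentage points, by list and element name. Points above 0 mark higher methylation in the knockout, or in the last list in Tet2 KO clones, the grey band is the range below the listing threshold of 25 points, and values reach from -100 to 95 points.

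For the tests, runs of listed B4 CpGs with gaps of at most 1000 bp were counted as single regions, each with the sign of its mean. The share of higher regions was 62.7% of 102 B4 regions in Tet1 KO clones and 65.0% of all other regions, a difference of -2.24 points (95% interval -12.5 to 7.23). In Tet2 KO clones it was 72.2% of 115 regions, a difference from the rest of -4.67 points (-13.9 to 3.36). In DKO clones it was 59.3% of 91 regions, a difference of -5.34 points (-16.2 to 4.93), and in TKO clones 52.9% of 138 regions, a difference of -4.12 (-12.9 to 4.51). Between the single knockouts it was 67.2% of 61 regions, 1.38 points above the rest (-11.9 to 13.0). None of these 5 differences passed Fisher's exact test, two-sided, with adjusted p from 0.478 to 0.942 over 94 tests of annotation classes, and 0 of the 5 had an unadjusted p under 0.05. When other interspersed repeats alone were the comparison, the difference turned to 0.527 points in Tet1 KO, 3.77 in DKO and 7.71 in TKO, again with no adjusted p under 0.05.

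Against the other SINE families the sign differed from list to list. In the direct list 67.2% of B4 regions but 80.7% of 202 Alu (B1) regions were higher in Tet2 KO, a difference of -13.5 points (95% interval -27.7 to -0.467) whose exact p of 0.0352 became 0.268 after adjustment over 10 tests. In Tet2 KO clones against WT the difference from the 80.7% of 295 Alu (B1) regions was -8.50 points (-18.6 to 0.876). In TKO clones B4 stood 10.5 points above the 42.4% of 158 B2 regions (-1.38 to 22.1), and 2.90 points above the 50% of Alu (B1). The other 6 differences lay between -5.55 and 5.36 points, and 0 of the 10 Fisher's exact tests passed, with 1 unadjusted p under 0.05.

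**Figure D2:**
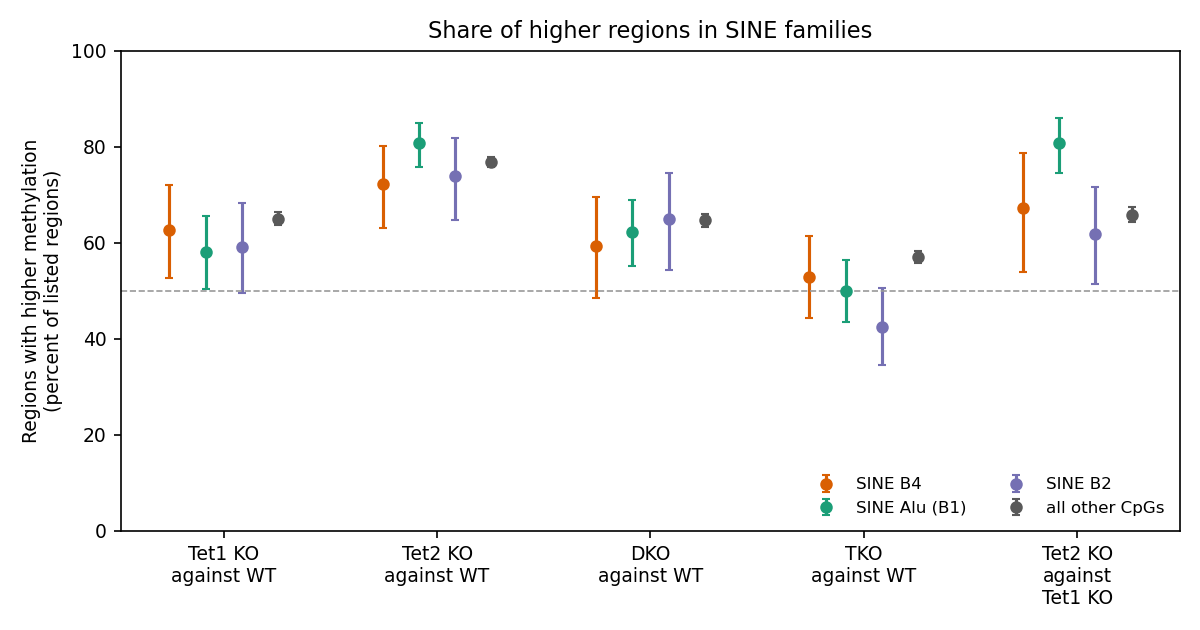
Percent of listed regions with higher methylation in B4, Alu (B1), B2 and all other CpGs, by list, with 95% Clopper-Pearson intervals that cover counting error only. All other CpGs are all those outside B4, Alu (B1) and B2 included. The B4 points run from 52.9% in TKO to 72.2% in Tet2 KO and their intervals overlap those of all other CpGs in each list.

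Element names within the family were compared with each other next. ID_B1 had the largest share of higher regions in Tet2 KO clones, 86.1% of 36 regions against 65.8% of 79 regions of the other names (difference 20.3 points, 95% interval 1.58 to 35.1, exact p = 0.0263, adjusted 0.342 over 20 tests). In the direct list the share was 88.9% of 18 ID_B1 regions against 58.1% of 43 (30.7 points, 2.87 to 49.5, exact p = 0.0342, adjusted 0.342). These lists share the Tet2 KO clones. In TKO clones 64.9% of 37 ID_B1 regions were higher against 49.0% of the others, and in DKO clones 53.8% of 26 against 61.5%, and neither difference passed. Elements named B4 ranged from 41.7% higher of 24 regions in TKO to 76.9% of 13 in DKO, B4A from 50% in DKO and TKO to 63.2% in the direct list, and RSINE1 from 50% in the direct list to 72.4% in Tet2 KO. Of the 20 tests 0 passed after adjustment and 2 had an unadjusted p under 0.05. The values thus do not separate the names beyond counting error, although intervals this wide do not show that they act alike.

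**Figure D3:**
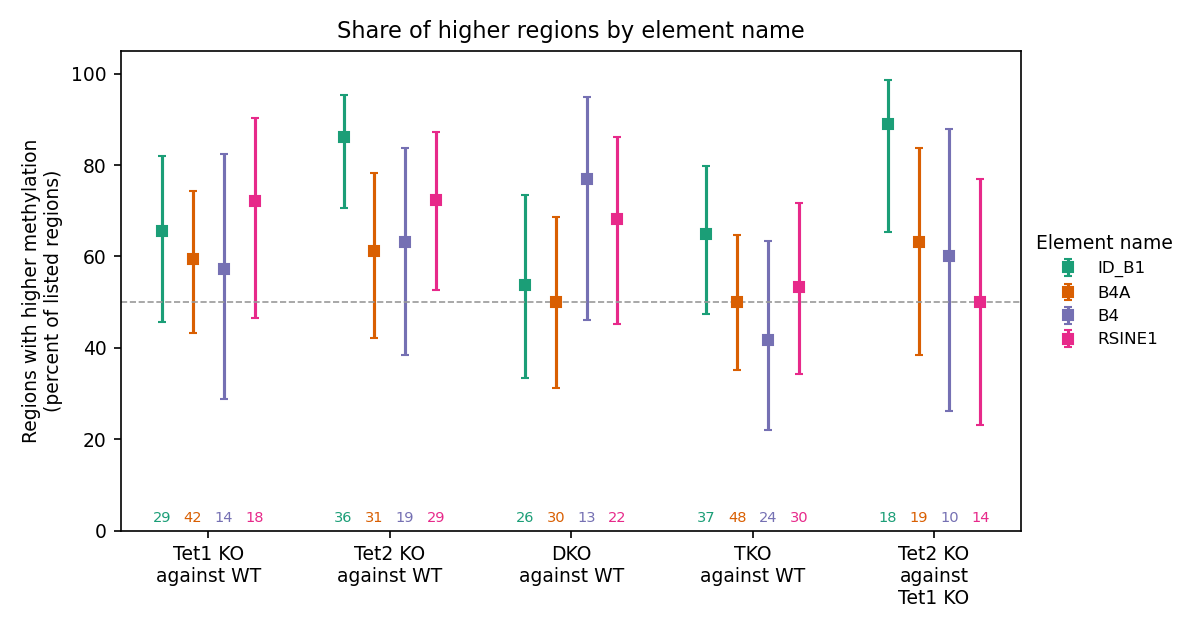
Percent of listed B4 regions with higher methylation by element name and list, with 95% Clopper-Pearson intervals for counting error, and the number of regions printed at the foot. ID_B1 stands at 86.1% in Tet2 KO and 88.9% in the direct list, and B4 at 41.7% in TKO.

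Whether an element lay within a gene was also compared. The share of higher regions in introns minus that between genes was -1.93 points in Tet1 KO, -8.41 in Tet2 KO, 4.76 in DKO and 5.41 in TKO clones. In the direct list 55.2% of 29 intronic but 78.1% of 32 intergenic B4 regions were higher in Tet2 KO, a difference of -23.0 points (95% interval -46.2 to 2.84, exact p = 0.100, adjusted 0.501 over 5 tests). Fisher's exact test passed for 0 of the 5 differences, and 0 had an unadjusted p under 0.05.

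The size of the listed differences at B4 CpGs was much the same in each list. Medians regardless of sign were 36.6 points in Tet1 KO, 37.1 in Tet2 KO, 36.3 in DKO, 36.0 in TKO and 36.9 in the direct list. Elsewhere in the same lists they were 33.3, 37.1, 37.7, 36.7 and 35.6 points. All entries had passed the threshold of 25 points. Differences of 50 points or more made up 17.4% of the B4 entries in Tet1 KO, against 10.3% elsewhere in that list. The shares in the other lists were 24.4% (21.9% elsewhere) in Tet2 KO, 21.9% (23.4%) in DKO, 19.2% (21.5%) in TKO and 18.8% (18.6%) in the direct list. These shares are a description and were not tested. At the other end, the members closest to the threshold were an ID_B1 CpG near Pik3r1 in Tet1 KO (-25.03 points) and one near Sdc1 in DKO (25.04 points).

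Listed B4 CpGs mostly stood alone, as did other listed CpGs. In the lists against WT, between 15.6% (Tet1 KO) and 19.8% (DKO) of them had another listed CpG within 1000 bp. Among all other CpGs it was 16.3% to 25.3%. In the direct list 10.9% of B4 CpGs had one, against 19.1% of all other CpGs. For DKO only entries with a paired annotation were searched. A listed neighbour outside B4 was found for 5 of 109 CpGs in Tet1 KO, 4 of 123 in Tet2 KO, 11 of 96 in DKO, 10 of 146 in TKO and 1 of 64 in the direct list. The nearest neighbour of any class had changed in the same direction for 13 of 17 B4 CpGs in Tet1 KO, 17 of 20 in Tet2 KO, 15 of 19 in DKO, 23 of 25 in TKO and 7 of 7 in the direct list. As shares these were 76.5%, 85%, 78.9%, 92% and 100%, against 84.0%, 87.4%, 85.1%, 87.2% and 87.0% of all other CpGs with a neighbour.

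The group of 3 lay in intron 1 of Ralb, which encodes a small GTPase of the Ras family, on chromosome 1, 16882 to 17073 bp from its TSS. In TKO clones the B4A CpG at 121384286 was 52.5 points higher than in WT, the ID_B1 CpG at 121384455 was 62.0 and that at 121384477 was 83.7 points higher. The first of them was also 62.4 points higher in Tet1 KO and 69.6 in Tet2 KO clones, and the last 34.4 points higher in Tet1 KO. None of the 3 was in the DKO list. In the window printed above the first stands beside one MspI site and the other pair beside another.

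Pairs of B4 CpGs in a list mostly carried the same sign. Upstream of Pawr, which encodes a pro-apoptotic protein, a pair of B4A CpGs was lower in Tet1 KO (-52.1 and -25.8 points) and in TKO clones (-56.9 and -50). Near Gsc, a homeobox gene of the organizer, a B4A pair was higher in Tet1 KO (49.6 and 40 points) and in TKO clones (49.1 and 27.2). Upstream of Cdc20b the B4A pair was higher in Tet2 KO (29.8 and 48.0) and DKO clones (71.8 and 46.6). In intron 1 of Cenpj, whose protein is needed for centriole assembly, an RSINE1 pair within 2000 bp of the TSS was higher in Tet1 KO (41.7 and 38.2) and Tet2 KO clones (30.1 and 49.9). Near Ghsr, the ghrelin receptor gene, an ID_B1 pair was lower in DKO clones (-43.3 and -69.3).

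Pairs of opposite sign occurred as well. In intron 1 of Sdk2, an adhesion molecule gene, adjacent B4A CpGs gave -36.3 and 34.4 points in Tet1 KO clones, and in intron 1 of Ski, a repressor of TGF-beta signalling, a B4A pair gave -29.7 and 60.2 points in Tet2 KO clones. A region's sign is that of its mean, so the Sdk2 region counted as lower (mean -0.959) and the Ski region as higher (mean 15.3).

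The highest B4 value of any list was that of an RSINE1 CpG in intron 3 of Zfr2, a zinc finger RNA-binding protein gene, at 95 points in TKO clones, with 56.1 in DKO and 36.9 in Tet2 KO. Upstream of Slc29a2, which encodes a nucleoside transporter, a B4A CpG was 94.6 points higher in DKO clones and in no other list. The lowest value was -100 points in DKO clones at an RSINE1 CpG 3293 bp upstream of Cybrd1, a ferric reductase gene, which was -37.0 points in Tet1 KO. A difference of that size means that the WT group was fully methylated there and the DKO group unmethylated. These extremes were chosen by their values and are given as a description, with each CpG placed by the gene of the nearest annotated TSS, at up to 660567 bp over all B4 CpGs.

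In Tet1 KO clones the highest B4 values were a B4A CpG near Mir6928 (83.3 points), ID_B1 CpGs near 4930438E09Rik (77.4), Dmrtb1 (71.9) and Cpsf6 (71.8), a subunit gene of the mRNA 3′ processing machinery, and the Ralb CpG above. The lowest 4 were all in B4A elements in introns, of Ckap4 (-77.5), Sp3 (-61.2), a transcription factor gene, Ror2 (-58.0), a Wnt5a receptor gene, and Foxn3 (-57.1), a forkhead factor gene. An ID_B1 CpG 4117 bp upstream of Pink1, a mitochondrial kinase gene, followed with -52.9 points. Of the 5 highest, 3 were in ID_B1 elements.

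In Tet2 KO clones the highest values were an ID_B1 CpG near 2010010A06Rik (89.3 points), elements named B4 near Ptges3 (86.2), an Hsp90 cochaperone gene, and in an intron of Rhoq (85.7), a small GTPase gene, and an ID_B1 CpG near 4930591A17Rik (77.2), then Ralb. The lowest were near A930031H19Rik (-86.8), Izumo2 (-67.0), Glp1r (-66.7), Gtsf1l (-61.2) and Gm4651 (-58.0). The CpG assigned to Glp1r, the incretin receptor gene, lies 45418 bp from its start in an intron of a neighbouring gene.

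In DKO clones Slc29a2 was followed by an element named B4 upstream of Clic4 (85.7 points), by Dmrtb1 (71.9), a germ cell DMRT factor gene, by Cdc20b (71.8) and by an RSINE1 CpG near Slc4a3 (70.4), an anion exchanger gene. After Cybrd1 the lowest were upstream of Mecom (-84.0), a zinc finger transcription factor gene, and of Sfswap (-83.2), a splicing regulator gene, then near Ghsr (-69.3) and Pik3r1 (-59.9). In TKO clones Zfr2 was followed by Mir710 (87.3), Epb41l4a (83.9), Ralb (83.7) and 1810058I24Rik (77.8). The lowest in TKO were near Slc10a6 (-85.9), Slc7a3 (-81.4), a cationic amino acid transporter gene on the X chromosome, Mir3109 (-76.5), Usp25 (-74.6), a deubiquitinase gene, and Gm34637 (-69.5).

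A total of 19 B4 CpGs were in 3 or 4 of the lists against WT. They were 7 of the 127 B4A members, 7 of 76 in RSINE1, 3 of 118 in ID_B1 and 2 of 60 in elements named B4. The share of all listed CpGs in 3 or 4 lists was not computed, so these counts are a description only. The lists share the WT clones, so values of a CpG against WT are not independent of each other and are given side by side. In all 4 lists, an RSINE1 CpG 56000 bp downstream of the TSS of E330011O21Rik was 50.4 points higher in Tet1 KO, 25.1 in Tet2 KO, 35.2 in DKO and 43.2 in TKO. An element named B4 in intron 3 of Lmx1a, a LIM homeobox gene of dopaminergic neurons, was 27.3 points higher in Tet1 KO and 45.9 in both Tet2 KO and DKO, but gave -29.9 in TKO.

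**Figure D4:**
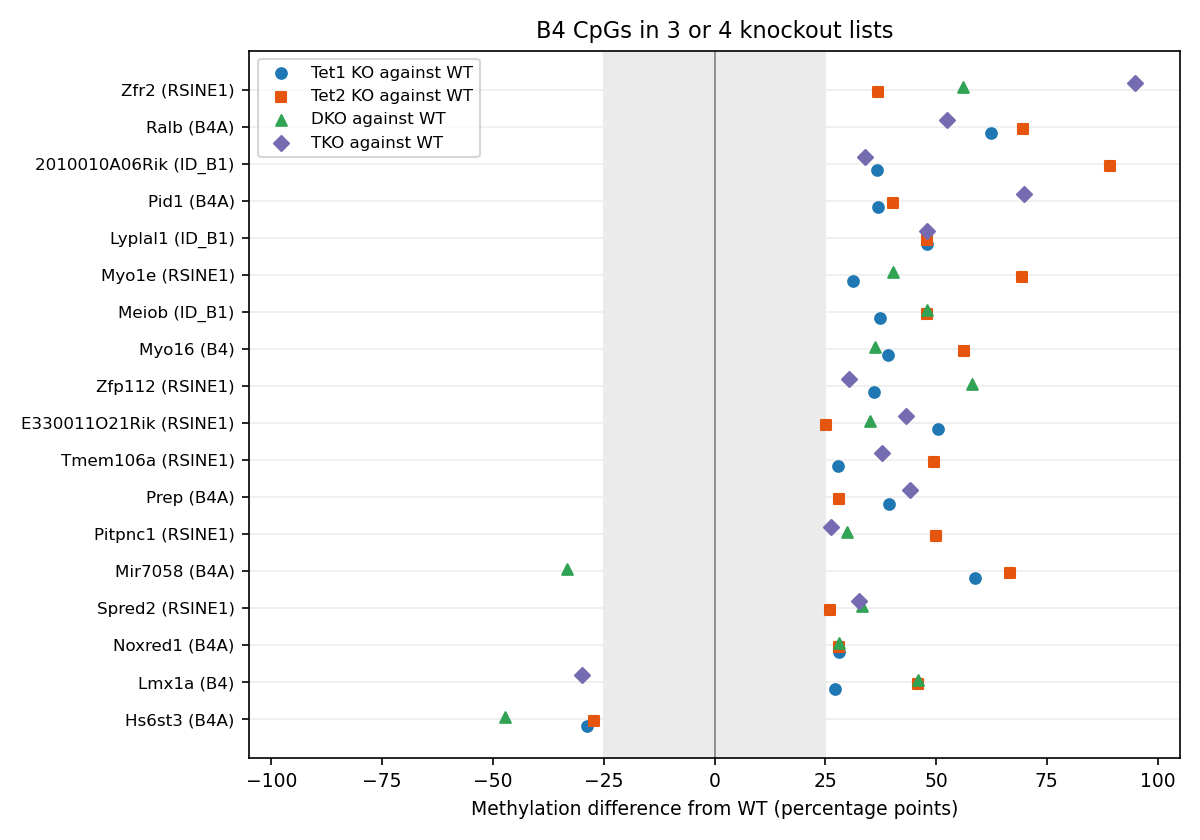
Methylation difference from WT, in percentage points, of 18 of the 19 B4 CpGs in 3 or 4 of the lists against WT, 1 row per CpG with its nearest gene and element name, sorted by the mean of the values. Hs6st3 has only values below 0, Lmx1a and Mir7058 have values on both sides, and the grey band is the range below the threshold of 25 points.

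Other CpGs of this set were in 3 lists. A B4A CpG upstream of Pid1 was 37.0 points higher in Tet1 KO, 40.2 in Tet2 KO and 69.8 in TKO. An RSINE1 CpG 1643 bp upstream of Myo1e, an unconventional myosin gene, was 31.3 higher in Tet1 KO, 69.4 in Tet2 KO and 40.4 in DKO, with 36.9 in Tet2 KO against Tet1 KO. Near Prep, a serine peptidase gene, a B4A CpG was 39.4, 28.1 and 44.2 points higher in Tet1 KO, Tet2 KO and TKO. Upstream of Myo16 an element named B4 gave 39.1, 56.4 and 36.3 points in Tet1 KO, Tet2 KO and DKO. The ID_B1 CpG near 2010010A06Rik gave 36.6, 89.3 and 34.0 points in Tet1 KO, Tet2 KO and TKO.

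Besides Zfr2, 4 of these were RSINE1 elements in introns. In intron 2 of Zfp112, a zinc finger gene, the values were 36.0 in Tet1 KO, 58.1 in DKO and 30.4 in TKO. In intron 4 of Spred2, an inhibitor of Ras signalling, they were 26.1 in Tet2 KO, 33.2 in DKO and 32.6 in TKO. In intron 1 of Pitpnc1, a phosphatidylinositol transfer protein gene, they were 50, 30 and 26.3 in the same order. At a CpG assigned to Tmem106a, within an intron of a neighbouring gene, they were 27.8 in Tet1 KO, 49.6 in Tet2 KO and 37.8 in TKO.

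Lower methylation in 3 lists was found at a B4A CpG in intron 1 of Hs6st3, a heparan sulfate sulfotransferase gene, which gave -28.7 in Tet1 KO, -27.3 in Tet2 KO and -47.3 in DKO. Near Mir7058 a B4A CpG was 58.7 points higher in Tet1 KO and 66.7 in Tet2 KO but gave -33.3 in DKO.

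Of 97 B4 CpGs in 2 or more lists against WT, 11 (11.3%) had a value identical between lists, to within 0.0001 points. Among all listed CpGs in 2 or more of these lists the share was 16.7%. An ID_B1 CpG assigned to Lyplal1, whose TSS is 178790 bp away, was 47.9 points higher than WT in Tet1 KO, Tet2 KO and TKO clones alike. A B4A CpG near Noxred1 was 28.1 points higher in Tet1 KO, Tet2 KO and DKO, and its B4A neighbour, assigned to Samd15, 36.4 points higher in Tet2 KO and DKO. Dmrtb1 had 71.9 in Tet1 KO and DKO, Ccnd3, a D-type cyclin gene, 41.9 in Tet2 KO and DKO, and Meiob, a meiotic recombination gene, 47.9 in Tet2 KO and DKO after 37.4 in Tet1 KO. With the same WT level in both comparisons, an identical difference is an identical level in the knockouts, as at either end of the scale.

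Values of both signs were held by 12.4% of B4 CpGs in 2 or more lists against WT, and by 10.9% of all such listed CpGs. Among B4 CpGs with an annotated entry in exactly 2 lists against WT, the 6 with the largest range all had values of opposite sign, which follows from how they were chosen. An RSINE1 CpG in intron 4 of Izumo2, a gene of the sperm IZUMO family, was -67.0 in Tet2 KO and 27.0 in DKO, and its value in Tet2 KO against Tet1 KO, -87.1, was the lowest of any B4 CpG there. An element named B4 upstream of Zkscan2 was 41.3 points higher in DKO but gave -47.2 in TKO. Upstream of Gtsf1l a B4A CpG was 26.1 in Tet1 KO and -61.2 in Tet2 KO. The others were an RSINE1 CpG upstream of Tnfrsf21 (31.9 in Tet2 KO, -35.1 in DKO), an ID_B1 CpG in intron 2 of Mia2 (30.6 and -33.8 in the same lists) and an element named B4 in intron 1 of Syk, a tyrosine kinase gene (-25.2 in Tet2 KO, 38.5 in TKO). An ID_B1 CpG near Gtf2ird1, with -39.8 in Tet2 KO, also stood in the DKO list at 25.7, but its DKO entry had no paired annotation and was not counted.

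Close to start sites, besides Myo1e and the Cenpj pair, a B4A CpG 1544 bp upstream of Rpl5, a ribosomal protein gene, was 27.7 higher in Tet2 KO and 28.2 in DKO. Higher values in a single list were those at Sh2d3c (52.1), Mon1b (46.4) and Hist1h4n (57.1) in Tet2 KO, 5730460C07Rik (29.4) in Tet1 KO, Tpst2 (36.1) in DKO and Ginm1 (29.6) in TKO. Lower values were those at Snx21 (-40) in Tet1 KO, Cyb5b (-54.3) and Zw10 (-29.7) in Tet2 KO, the collagen genes Col9a1 (-50.9) and Col6a6 (-43.2) in DKO and Mab21l3 (-46.7) in TKO. The value at N6amt1, an RSINE1 CpG 910 bp from the TSS and the closest of the 18, was -42.2 in Tet2 KO against Tet1 KO, and Zw10 gave -25.7 there. No element named B4 lay within 2000 bp of a TSS.

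The direct list shares its clones with the lists of the single knockouts against WT, so values are again set side by side. Its positions were given on both strands, and those of the lists against WT as forward cytosines alone. Whether the strand bears on the values was not tested. A direct value did not always equal the gap between the values against WT. Among its highest values were those near Tenm4 (56.7 points) and Ctdsp2 (53.3 beside a neighbour of 42.1), which were in no list against WT. After Izumo2 the lowest were Gm4651 (-78.2) and Glp1r (-63.9), which gave -58.0 and -66.7 in Tet2 KO against WT. An element named B4 in an intron of Rhoq was above WT by 31.1 points in Tet1 KO and by 85.7 in Tet2 KO. The direct list gave 37.1, less than the gap between those values, and the cause was not tested. At members in the Tet1 KO list but not in that of Tet2 KO, Pink1 gave -52.9 against WT and 50.7 in the direct list, Ptk7, a receptor-like kinase gene, -40.9 and 48.5, and Mapt, the tau gene, 48.3 and -29.2.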

How the data were processed

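The authors clipped the first 6 bases with Trim Galore 0.5, aligned reads to mm9 with Bismark 0.19.1, kept CpGs with at least 10 reads, compared groups with methylKit (q-value under 0.05, at least 25 points) and annotated them with HOMER. The deposited values are the authors' methylation differences in percentage points and distances to a TSS in bp. The number of CpGs tested is not known, so shares are of listed CpGs.

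The DKO annotation was out of row order. It was paired to coordinates by the TSS of its promoter, taken from other lists, plus its distance. All 5589 entries with such a promoter found 1 position. Of 115 B4 entries 96 were paired and 19 dropped. The same pairing was right for 5401 of 5401 TKO entries. The direct list held 2090 forward and 2036 reverse cytosines, and the placed positions of the other lists were all forward. Reverse-strand positions of the direct list were moved to the forward cytosine.

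Regions (CpGs within 1000 bp) were set against each other by Fisher's exact test, two-sided, with Benjamini-Hochberg adjustment (scipy 1.17.1) and Clopper-Pearson 95% intervals, from which intervals of differences were combined. Classes needed 20 regions. The scripts were tested on simulated data. Alternatives were other minimum differences (30 and 40 points), other merging, the DKO annotation as deposited, no CpGs near a TSS, other repeats as comparison and autosomes alone. Named CpGs were the 5 highest and 5 lowest of a list against WT (3 and 3 in the direct list), those in 3 or more lists, the 6 of widest range in 2 lists, those within 2000 bp of a TSS and groups of 3; CpGs named for pairs, identical values and the direct list were chosen after their values were seen. Members and lists were chosen with earlier results of these data known. Sequences came from NCBIM37. A few named CpGs are not reported here.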

Additional observations from a re-analysis of the deposited data

Results flagged for a closer look

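An RSINE1 CpG 3196 bp downstream of the TSS of Cldn4, a tight junction gene, differed between the single knockouts in the authors' own comparison. Its value was -33.6 points in Tet1 KO and 27.6 in Tet2 KO against WT, and 45.5 in Tet2 KO against Tet1 KO, past their thresholds. The direct value was less than the gap between the values against WT, and the cause was not tested. Values per clone were not used here.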

How the results depend on the processing

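No paired analysis was possible because the lists carry no values per clone, and for the same reason no replicate could be left out. Of 116 values under the alternatives, 106 kept their direction and 0 had an adjusted p under 0.05 by Fisher's exact test (lowest 0.122). The share of higher B4 regions minus that elsewhere turned to -14.4 points in the direct list at a minimum of 40 points, and against other interspersed repeats to 0.527 in Tet1 KO, 3.77 in DKO and 7.71 in TKO. The cause was not tested. Against B2, Tet2 KO turned to 3.14 at 30 and 1.76 at 40 points, Tet1 KO to -11.6 and the direct list to -11.6 at 40 points, and against Alu (B1) DKO turned to 1.96 at 40 points. RSINE1 in TKO turned to -3.17 without merging. At 40 points 26 to 55 B4 CpGs a list are left. The intron comparison was rerun at 30 points and without merging, chosen after seeing the data. With 61 to 138 B4 regions a list, the intervals cover counting error alone, since depth is unknown.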
